A study of Mus musculus with 13 samples.

Results

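Of the 6 aorta libraries in a series of 13, 3 carried a strong signal of Myh6, the gene of the main myosin heavy chain of adult mouse heart muscle, and 3 did not. The libraries were chosen by their Myh6 level in CPM, the counts of a gene scaled to the library's total of gene counts. At 100 CPM or more stood Rosa26 1, Rosa26 2 and dNdK 2, called Myh6-high here. Under 10 CPM stood Rosa26 3, Rosa26 4 and dNdK 1, called Myh6-low. All came from snap-frozen aorta of mice aged 88 weeks with the strain label FVBxC57BL/6, and the other 7 libraries, called muscle below, were of gastrocnemius, a calf muscle. The 4 Rosa26 aorta libraries came from control mice labelled GFP-FOXM1dNdK-/-Rosa26-rtTAtg/+. The 2 dNdK libraries came from mice labelled GFP-FOXM1dNdKtg/+Rosa26-rtTAtg/+, so both genotypes carried rtTA, the doxycycline-controlled transactivator expressed from the Rosa26 locus. The transgene encodes a GFP-tagged form of FOXM1, a transcription factor of the cell cycle. The labels state no doxycycline treatment, sex or sequencing run, and do not say that each library came from a separate animal, so p-values measure the spread between these libraries. Each class held 2 Rosa26 libraries and 1 dNdK library.

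The aorta leaves the heart at the aortic root, close to the atria, and smooth muscle, endothelium, fibroblasts and surrounding fat are its usual tissue. Striated heart muscle contracts through sarcomeres, in which myosin thick filaments pull on actin thin filaments whose access is set by troponin and tropomyosin in response to calcium. Atrial and ventricular muscle share most of these parts but differ in some light chains, channels and secreted peptides. Heart and skeletal muscle use many of the same genes, and a smaller group, with Myh6, Tnni3 and Mybpc3 among them, marks heart muscle in the adult mouse.

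Upstream sequences are shown for 4 of the genes that stood at 0 to 5.26 CPM in the Myh6-low libraries and between 47.2 and 1351 CPM in the Myh6-high ones. Each is the stretch of 250 bases before an annotated start of the gene in RefSeq on GRCm38.p6, read 5′ to 3′ on the gene's strand. Capitals mark the matches described after them.
Myh6, chr14:54966608-54966857, minus strand: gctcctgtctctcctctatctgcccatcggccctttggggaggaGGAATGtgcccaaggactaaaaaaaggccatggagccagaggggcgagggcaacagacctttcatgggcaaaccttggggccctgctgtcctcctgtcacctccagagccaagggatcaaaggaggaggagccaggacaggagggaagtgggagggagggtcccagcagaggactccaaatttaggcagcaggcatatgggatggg
Myl7, chr11:5898783-5899032, minus strand: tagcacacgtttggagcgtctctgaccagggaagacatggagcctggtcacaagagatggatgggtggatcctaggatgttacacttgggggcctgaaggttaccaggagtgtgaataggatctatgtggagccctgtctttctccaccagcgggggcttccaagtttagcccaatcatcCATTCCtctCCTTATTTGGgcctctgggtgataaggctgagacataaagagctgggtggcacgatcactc
Actc1, chr2:114052876-114053125, minus strand: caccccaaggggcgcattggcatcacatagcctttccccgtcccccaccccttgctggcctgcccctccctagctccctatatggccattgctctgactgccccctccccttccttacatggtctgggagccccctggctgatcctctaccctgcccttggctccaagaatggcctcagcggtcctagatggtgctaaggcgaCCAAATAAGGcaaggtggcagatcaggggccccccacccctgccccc
Mybphl, chr3:108364661-108364910, plus strand: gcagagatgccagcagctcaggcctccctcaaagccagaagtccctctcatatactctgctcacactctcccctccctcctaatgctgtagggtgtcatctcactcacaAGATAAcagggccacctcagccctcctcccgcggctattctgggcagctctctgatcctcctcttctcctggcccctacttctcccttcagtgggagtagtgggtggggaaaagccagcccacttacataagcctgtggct

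The capitals in Myh6 are CATTCC read on the other strand, the core bound by TEAD factors. Those in Myl7 are CATTCC and a CArG box, the site of serum response factor. Actc1 holds a CArG box, and Mybphl holds AGATAA, a site of the GATA type. All motifs were searched on both strands in 86 such windows of 66 of the 82 genes counted below as high with Myh6, and in 19127 windows of 15669 of the 19838 genes measured. A MEF2 site was found in 12.8% of the windows of the 82 genes and in 2.48% of all windows. A CArG box was found in 6.98% and 1.24%, AGATAA in 17.4% and 8.54%, and CATTCC in 19.8% and 11.4%. TATAAA, which a MEF2 site can contain and which was counted also where it did, was found in 12.8% and 11.4%, and CACGTG, the E-box of the clock proteins, in 5.81% and 6.87%. These shares describe letters in a window, not bound sites.

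The Myh6-high libraries held 9735426 to 12399087 gene counts and the Myh6-low libraries 3919526 to 9880325. A count of 3, the floor of detection used here, was worth 0.242 to 0.308 CPM in the first class and 0.304 to 0.765 CPM in the second. Unmapped reads made up 4.62% to 5.62% of the Myh6-high and 4.75% to 7.45% of the Myh6-low libraries. The depths overlapped, but the shallowest library, Rosa26 4, was Myh6-low, and the part of depth in the class differences was not tested. In these bulk samples fewer cells of a type and less RNA per cell cannot be told apart.

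Myh6, on chr14:54941921-54968017, stood at 911 CPM in Rosa26 1, 394 in Rosa26 2 and 685 in dNdK 2. It stood at 2.13 CPM in Rosa26 3, 0 in Rosa26 4 and 0.35 in dNdK 1, which were 21, 0 and 3 counts. The values just inside and just outside the choice, 394 and 2.13 CPM, were far apart, and no library lay between them. Tnnt2, on chr1:135836315-135852268, encodes cardiac troponin T, the subunit that ties troponin to tropomyosin. It stood at 759, 364 and 900 CPM in Rosa26 1, Rosa26 2 and dNdK 2, and at 0.405, 0.51 and 0.233 CPM in Rosa26 3, Rosa26 4 and dNdK 1. Tnnt2 was not used for the choice and split the libraries the same way. It was named as a marker with earlier results of these data known, so it is not separate support for the choice. In the 7 muscle libraries Myh6 had a median of 1.03 CPM and Tnnt2 one of 4.17 CPM, with at most 7.82 CPM. The heart muscle label was further borne by Tnni3, Mybpc3, Actc1 and Ryr2, whose values follow, while Nkx2-5, a heart transcription factor, reached only 0.565 to 1.31 CPM in the Myh6-high libraries and had no count in the Myh6-low ones.

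**Figure D1:**
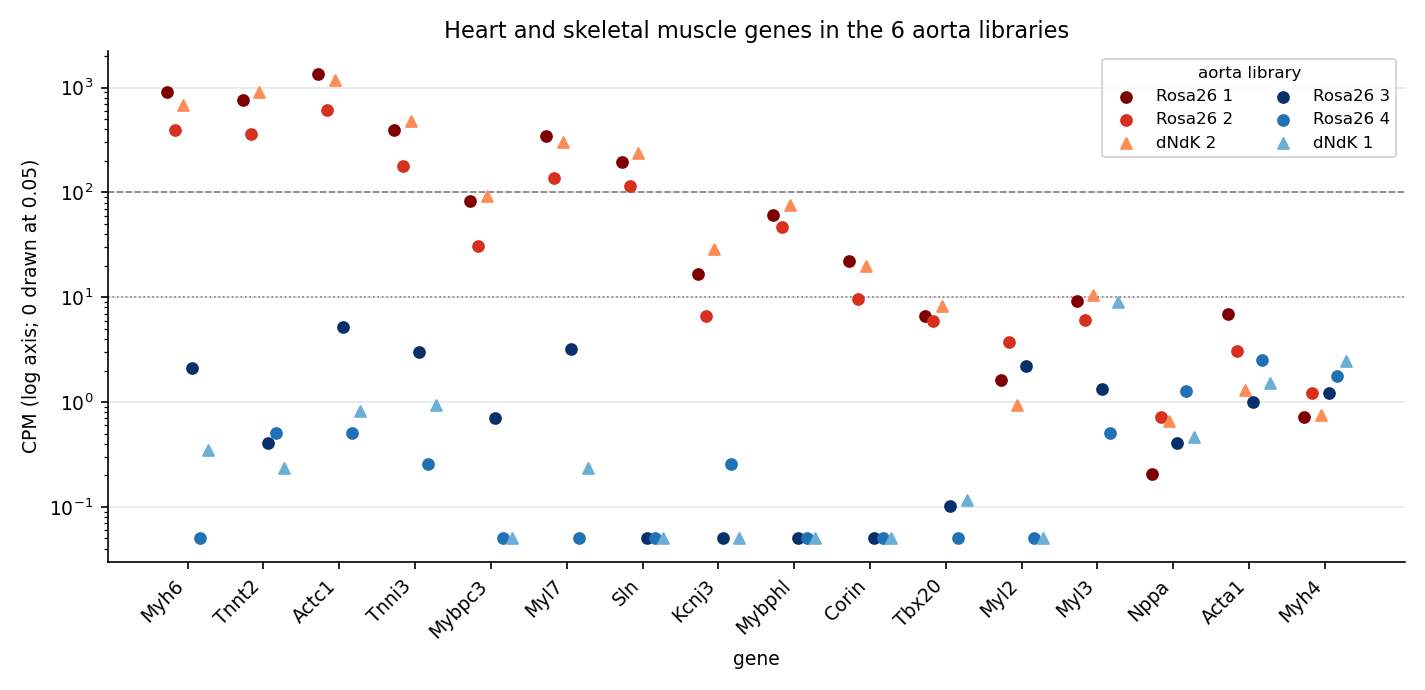
CPM of 16 genes in the 6 aorta libraries on a log axis, with 0 drawn at 0.05; red and orange points are the Myh6-high libraries, blue points the Myh6-low ones, circles Rosa26 and triangles dNdK, and the grey lines mark 100 and 10 CPM. The heart and atrial genes from Myh6 to Tbx20 lie apart in the classes, with Myh6 at 394 to 911 against 0 to 2.13 CPM. All of them met the rule for high with Myh6 given below, which sets the classes apart. Myl2, Myl3, Nppa and the skeletal genes Acta1 and Myh4 overlap.

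To find what travelled with Myh6, a gene was counted as high with Myh6 when its lowest CPM in the Myh6-high libraries was at least 5 and at least 2-fold its highest CPM in the Myh6-low libraries. The reverse was counted as low with Myh6. Because Myh6 in these same libraries set the classes, all values of this contrast are descriptions and carry no test. Of 8868 genes at 5 CPM or more in every library of a class, 82 were high (0.925%) and 3 were low (0.0338%). With no limit on the fold, the Myh6-high libraries all lay above the Myh6-low ones for 1097 genes (12.4%) and all below for 576 (6.5%). Cacna1c lay just inside the 2-fold limit (12 against 5.87 CPM), with Angptl4 and Rims2 next at ratios of 2.09 and 2.11, and Pde4dip, Sh3bgr and Akap6 just outside at 1.99, 1.96 and 1.95. The count of high genes grew to 124 without Rosa26 2, 229 without dNdK 2 and 346 without dNdK 1; by its construction the rule can only keep or add genes when a library is left out. The count of low genes grew from 3 to 8 without Rosa26 1, 10 without dNdK 2, 11 without Rosa26 4 and 73 without dNdK 1.

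**Figure D2:**
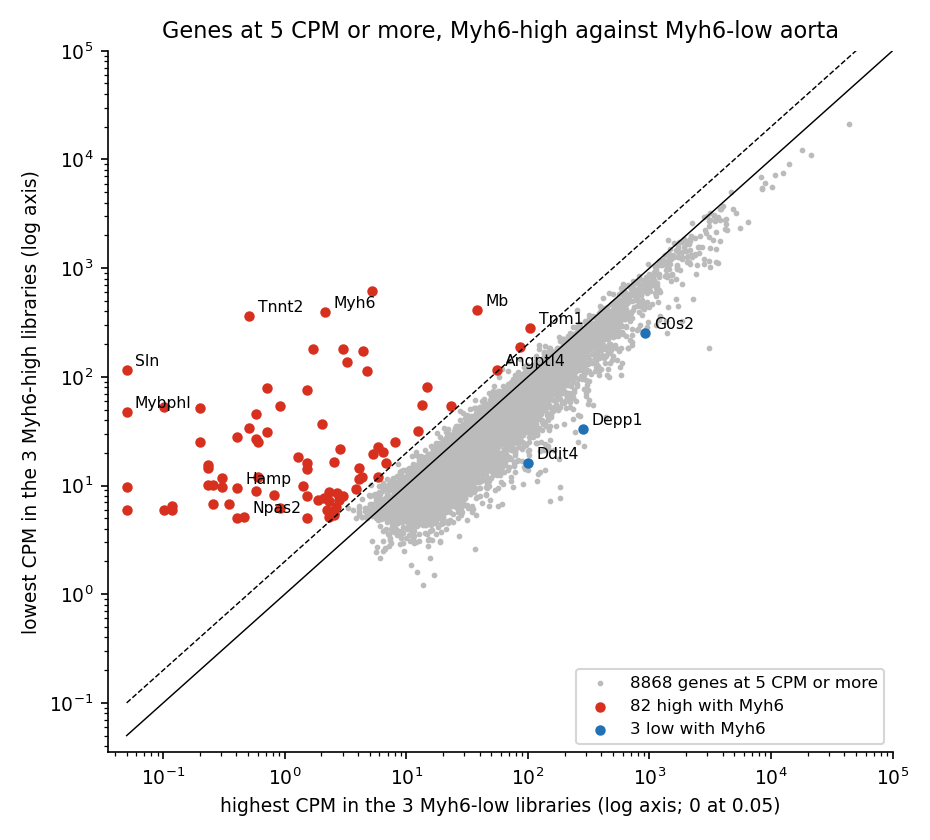
Each of the 8868 genes at 5 CPM or more, by its highest CPM in the Myh6-low libraries (x) and its lowest CPM in the Myh6-high libraries (y), both on log axes with 0 drawn at 0.05; the solid line marks equal values and the dashed line 2-fold. The 82 red genes lie above the dashed line, many of them with near 0 on the x axis, and the 3 blue genes are those low with Myh6.

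Heart muscle genes made up much of this group. Of 134 measured genes on 4 lists of heart muscle genes, 47 were high with Myh6 and none was low. Of the 134, 76 reached 5 CPM in every library of a class, and for 56 of these the Myh6-high libraries all lay above the Myh6-low ones. The other 58 did not reach that level, 12 of the 134 had at most 3 counts in each aorta library, and 29 of the 76 were not counted as high. The 82 genes together took 0.858%, 0.481% and 0.88% of all gene counts in Rosa26 1, Rosa26 2 and dNdK 2. They took 0.0393%, 0.0289% and 0.0357% in Rosa26 3, Rosa26 4 and dNdK 1, so the signal was a small part of each library even where it was high. The gap between the classes in this sum was set by the rule that picked the genes, Myh6 among them.

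Sarcomere genes were counted most often, 21 of 34 measured. The list's median difference of class medians was 3.79 on the log2 (CPM + 1) scale, beside 0.07 over all genes at 5 CPM. Actc1, cardiac alpha actin of the thin filament, had 1351, 616 and 1182 CPM in Rosa26 1, Rosa26 2 and dNdK 2. It had 5.26, 0.51 and 0.816 CPM in Rosa26 3, Rosa26 4 and dNdK 1. Tnni3, the cardiac inhibitory troponin, stood at 393, 179 and 478 CPM in the Myh6-high libraries and at 3.04, 0.255 and 0.933 in the Myh6-low ones. The rule lets no counted gene overlap between the classes. In both genes Rosa26 2 was the lowest Myh6-high library and Rosa26 3 the highest Myh6-low one. Tnnc1, the calcium-binding troponin of heart and slow muscle, stood at 219, 174 and 196 CPM against 1.32, 3.06 and 4.43 CPM. Mybpc3, cardiac myosin-binding protein C, had 83.8, 31.2 and 93.2 CPM against 0.708, 0 and 0, and no count in any muscle library. Tpm1, a tropomyosin that smooth muscle also uses, split the classes least among the sarcomere genes named, at 339, 282 and 460 CPM against 105, 79.9 and 84.9. Ttn (titin, the elastic filament), Actn2 (the Z-disc actinin), Tcap (the titin cap), Csrp3 and Myoz2 (Z-disc proteins) had lowest Myh6-high values of 79.3, 76.2, 113, 52.9 and 53.9 CPM. Their highest Myh6-low values were 0.708, 1.52, 4.76, 0.101 and 0.911 CPM. Ttn, Actn2 and Tcap, like Mybpc3, were picked for naming after their values were seen.

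Genes of calcium handling and excitation were counted less completely, 8 of 31, with a list median of 1.5 on the same scale. Hrc, a calcium-binding protein of the sarcoplasmic reticulum, stood at 78.8, 37 and 69.1 CPM in Rosa26 1, Rosa26 2 and dNdK 2 and at 2.02, 2.04 and 0.816 in Rosa26 3, Rosa26 4 and dNdK 1. Ryr2, the calcium release channel of the heart, stood at 23.2, 9.19 and 18.5 CPM against 2.53, 1.53 and 3.85. Casq2, the cardiac calsequestrin, stood at 38.1, 20.2 and 46.3 CPM against 2.43, 6.38 and 2.91. For these 3 genes, as for all genes counted, the rule itself set the classes apart. Popdc2, a membrane protein of heart and muscle, had nearly even values in the Myh6-high class, 25.2, 30.7 and 25.3 CPM, against 2.53, 6.38 and 8.04. Cacna1c, the L-type calcium channel that smooth muscle also carries, stood at 12, 13 and 15 CPM against 5.87, 5.36 and 4.55. Atp2a2, the calcium pump SERCA2 of heart and slow muscle, had 1760, 851 and 1369 CPM against 825, 485 and 464. It did not reach the 2-fold limit, although its classes did not overlap. Pln, the inhibitor of this calcium pump, was too low for the rule but had 6.37, 4.11 and 10.9 CPM against no count in any Myh6-low library. Kcna5, a potassium channel of atrial muscle, was lower in the Myh6-high libraries, at 13.1, 16.6 and 17.5 CPM against 27.1, 27 and 35.8. Atp2a2, Pln and Kcna5 were chosen after their values were seen.

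Among genes with chamber-restricted use, 13 of 25 measured atrial genes reached 5 CPM in every library of a class, and 4 were high with Myh6. Myl7, the atrial regulatory light chain, stood at 345, 137 and 303 CPM in Rosa26 1, Rosa26 2 and dNdK 2, against 3.24, 0 and 0.233 in Rosa26 3, Rosa26 4 and dNdK 1. Sln, sarcolipin, a regulator of the calcium pump abundant in atria, had 195, 116 and 240 CPM, with no count in any Myh6-low library. Muscle held Sln at 10.5 to 709 CPM but Myl7 at no more than 0.147 CPM. Kcnj3, a subunit of the acetylcholine-activated potassium channel of atria, had 16.8, 6.69 and 29.2 CPM against 0, 0.255 and 0, and Fgf12, a channel-binding protein, had 19.9, 9.76 and 24.7 against 0.304, 0 and 0.117. The partner subunit of Kcnj3, Kcnj5, stood at 8.22, 2.02 and 8.22 CPM, and Chrm2, the muscarinic receptor that opens the channel, at 11.1, 3.63 and 9.25 CPM. Neither Kcnj5 nor Chrm2 had a count in the Myh6-low or the muscle libraries. Pam, an amidating enzyme of atrial granules, stood at 177, 119 and 161 CPM against 61.4, 21.9 and 23.8, just under 2-fold at its closest.

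Other defining atrial genes were not seen. Nppa, atrial natriuretic peptide, stood at 0.205, 0.726 and 0.654 CPM in the Myh6-high and 0.405, 1.28 and 0.466 CPM in the Myh6-low libraries, so the classes overlapped near the floor. Myl4, the atrial essential light chain, had at most 4 counts in each aorta library. Bmp10 and Gja5 had at most 2 and 0 counts there. The same near-zero level in a gene that heart muscle uses strongly was also found for genes of skeletal muscle in muscle itself. Tnnc2, the fast troponin C, reached at most 1.98 CPM in the 7 muscle libraries, and Trdn (triadin) and Tpm3 at most 0.17 and 0.094 CPM. In this amplicon panel a value near 0 thus does not show that a gene was off. Kcnj5, Chrm2, Pam, Nppa and Myl4, and the genes near 0, were chosen after their values were seen.

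Of 15 measured ventricular genes, only 4 reached 5 CPM in every library of a class. The rule counted 2 of these, and both are also made outside ventricles. Fhl2, a LIM-domain protein of heart, stood at 12.1, 14.4 and 34 CPM in Rosa26 1, Rosa26 2 and dNdK 2, against 4.35, 2.55 and 2.33 in Rosa26 3, Rosa26 4 and dNdK 1. Mlip, a lamin-interacting protein of heart and skeletal muscle, stood at 11.5, 5.97 and 14.4 CPM against 0.304, 0 and 2.21. Myl2, the ventricular regulatory light chain, stood at 1.64, 3.71 and 0.934 CPM against 2.23, 0 and 0, so it did not separate the classes, although muscle libraries held it at up to 73.5 CPM. Myl3, the ventricular essential light chain, stood at 9.14, 6.05 and 10.6 CPM against 1.32, 0.51 and 8.98 and overlapped as well. Irx4 had no count in any of the 13 libraries, and Myh7 had 3 counts in Rosa26 1 and none elsewhere. Reads that fit both Myh6 and Myh7 would not be in the gene rows, so the split between these near-identical genes is uncertain. The atrial list summed to 884 to 1386 CPM in the Myh6-high and 425 to 455 CPM in the Myh6-low libraries, and the ventricular list to 53.6 to 97.7 and 11.7 to 27.7 CPM. Of 16 measured genes of the conduction system 4 reached 5 CPM in every library of a class, and none was high. Their 2 most abundant, the T-box factor Tbx3 and the signalling regulator Rgs4, stood at 21.4 to 29 and 15.2 to 27.6 CPM in the Myh6-high libraries, against 29 to 135 and 12 to 77.4 CPM.

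Of 26 measured heart transcription factors and co-factors, 3 were counted. Ankrd1, a stress-responsive muscle co-factor, stood at 203, 182 and 383 CPM in Rosa26 1, Rosa26 2 and dNdK 2, against 1.72, 0.765 and 0.583 in Rosa26 3, Rosa26 4 and dNdK 1. Tbx20, a T-box factor of heart muscle, was low but clean, at 6.57, 5.89 and 8.22 CPM against 0.101, 0 and 0.117, with no count in muscle. Prox1, a factor of heart muscle and of lymphatic endothelium, stood at 6.88, 6.61 and 6.35 CPM against 2.63, 0 and 0.699. It was also the single gene counted of 10 measured on the lymphatic list. Tbx5, a factor of atria and left ventricle chosen after its values were seen, stood at 31.4, 18.3 and 32.2 CPM against 14.3, 9.95 and 8.51, without overlap but under 2-fold.

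The remaining heart list, of energy, stress and secreted proteins, had 15 of 43 genes counted. Mb, myoglobin, the oxygen store of red muscle, stood at 624, 410 and 808 CPM in Rosa26 1, Rosa26 2 and dNdK 2, against 38.4, 5.36 and 6.41 in Rosa26 3, Rosa26 4 and dNdK 1. Ckmt2, the mitochondrial creatine kinase of striated muscle, stood at 95, 51.5 and 122 CPM against 0.202, 0 and 0. Hspb7, a small heat shock protein of the heart, stood at 190, 81.1 and 192 CPM against 14.7, 6.38 and 3.73. For Mb and Hspb7 Rosa26 3 was the highest Myh6-low library, as for 41 of the 81 high genes other than Myh6, beside 48.8% of all 8868 genes. Cryab, a small heat shock protein also made outside muscle, was present in both classes, at 346, 190 and 281 CPM against 39.2, 52.6 and 86. Cox6a2, a muscle subunit of cytochrome oxidase, stood at 44.9, 33.6 and 37.2 CPM against 0.304, 0.51 and 0.35. Ckm, muscle creatine kinase, stood at 46.6, 27 and 51.5 CPM against 0.304, 0.255 and 0.583. Corin, the protease that activates atrial natriuretic peptide, stood at 22.4, 9.6 and 19.7 CPM with no count in the Myh6-low libraries, and Mylk3, the cardiac myosin light chain kinase, at 47.8, 21.9 and 44.4 CPM against 2.83, 0.255 and 1.17. Corin and Mylk3 were chosen after their values were seen. Over the 4 heart lists, 11 genes had no count in the 3 Myh6-low libraries and over 3 counts in each Myh6-high one. Of these 11, only 3 met the rule for high with Myh6. The same was not counted over all genes, and Rosa26 4, a Myh6-low library, was the shallowest, so the 11 are a description only.

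Since heart and skeletal muscle share genes, the 82 genes were set against the 7 muscle libraries. In all 7, 52 of the 82 reached 10 CPM, 24 stayed under 10 CPM, and 6 were mixed. The same was not counted over all genes at 5 CPM, so these counts describe the 82 only. Among the 24 were Myh6, Tnnt2, Tnni3, Myl7, Mybpc3, Mybphl, Corin and Tbx20, and the 24 took 0.284%, 0.138% and 0.291% of the counts of Rosa26 1, Rosa26 2 and dNdK 2. In Rosa26 3, Rosa26 4 and dNdK 1 they took 0.00465%, 0.00212% and 0.00318%. As for all 82 genes, the rule that picked them set the gap between the classes in this sum. Acta1 and Myh4, which define fast skeletal muscle, did not follow Myh6. Acta1, skeletal alpha actin, stood at 6.98, 3.06 and 1.31 CPM in the Myh6-high and 1.01, 2.55 and 1.52 CPM in the Myh6-low libraries, against 29719 to 44724 CPM in muscle. Myh4, the fast myosin of that muscle, stood at 0.719, 1.21 and 0.748 CPM against 1.21, 1.79 and 2.45, and at 30012 to 42910 CPM in muscle. Of 28 measured fast muscle genes, only 3 reached 5 CPM in every library of a class, and 2 were counted. Eno3 (muscle enolase) stood at 121, 54.6 and 119 CPM against 12.3, 13.5 and 12.9. Pygm (muscle glycogen phosphorylase) stood at 133, 54.3 and 113 CPM against 23.1, 21.4 and 15. Heart muscle also makes both enzymes. Of 11 slow muscle genes, 5 reached 5 CPM in every library of a class, and 3 were counted. These were Tnnc1, Csrp3 and Myoz2, which are also on the sarcomere list.

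**Figure D3:**
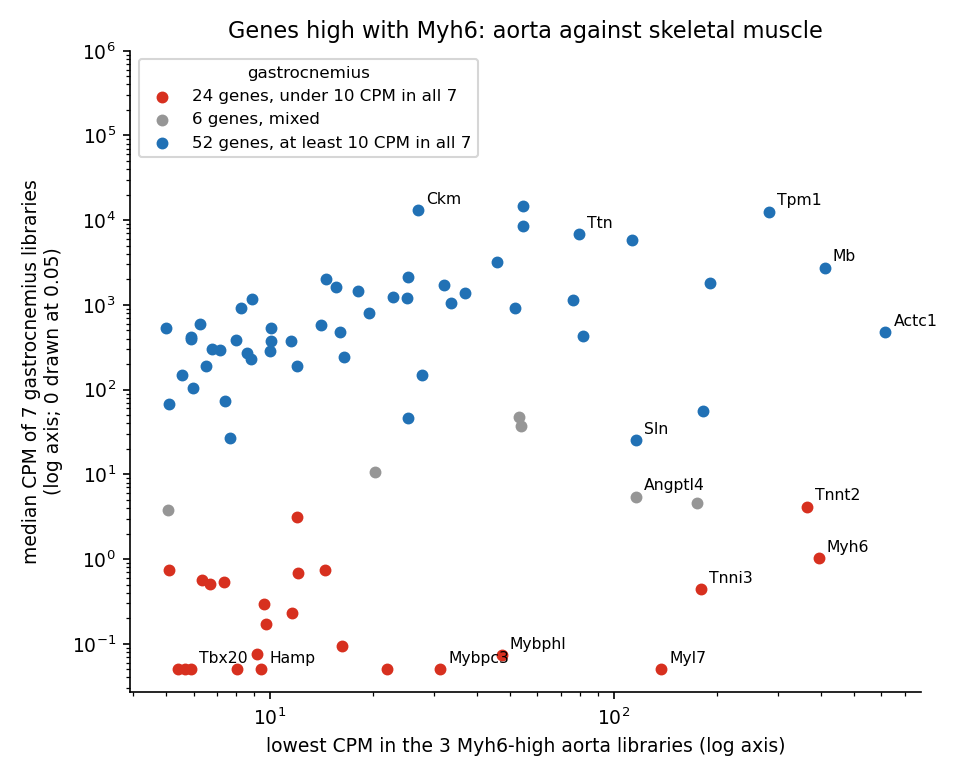
Each of the 82 genes high with Myh6, by its lowest CPM in the 3 Myh6-high aorta libraries (x) and its median CPM in the 7 skeletal muscle libraries (y), both on log axes with 0 drawn at 0.05. The 24 red genes stayed under 10 CPM in all muscle libraries, the 52 blue genes reached 10 CPM in all, and the 6 grey genes were mixed.

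On no list stood 31 of the 82. Mybphl, a myosin-binding protein C relative known from atria, stood at 61.3, 47.2 and 76.7 CPM in Rosa26 1, Rosa26 2 and dNdK 2, with no count in the other 3 aorta libraries and at most 0.269 CPM in muscle. Mapk10, a stress-activated kinase, stood at 16.3, 11.6 and 21.4 CPM against 0.304, 0 and 0, and at most 1.21 CPM in muscle. Among the off-list genes with at least 10 CPM in each Myh6-high library, these 2 of the 10 with the largest ratios stayed under 10 CPM in all muscle libraries. Pgam2 (muscle phosphoglycerate mutase), Nrap (an anchoring protein of nascent myofibrils) and Apobec2 (a muscle deaminase relative) had lowest Myh6-high values of 45.9, 15.6 and 10.1 CPM and highest Myh6-low values of 0.583, 0.233 and 0.255 CPM. Lrrc2, Tacc2, Fsd2, Txlnb and Fbxo40 completed the 10, with lowest Myh6-high values of 10 to 16 CPM, highest Myh6-low values of 0.233 to 1.53 CPM and at least 97.2 CPM in each muscle library.

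Within the Myh6-high class the genes did not all keep step with Myh6, which differed 2.32-fold between Rosa26 1 and Rosa26 2. Of the other 81 genes, 68 were lowest in Rosa26 2, as Myh6 was, beside 27.2% of all 8868 genes. Counted per 100 Myh6 counts, 32 of the 81 stayed within 1.5-fold over the 3 libraries, and the median spread was 1.62-fold. Actc1 stood at 148, 157 and 173 per 100 Myh6 counts in Rosa26 1, Rosa26 2 and dNdK 2, Hrc at 8.64, 9.4 and 10.1, and Corin at 2.46, 2.44 and 2.88. These genes tracked Myh6 closely. Tnnt2 stood at 83.3, 92.5 and 131, and Tnni3 at 43.2, 45.4 and 69.8, each highest in dNdK 2. With 1 dNdK library in the class, genotype and library cannot be told apart here.

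Other genes were not lowest in Rosa26 2 or were only slightly lower there, so that their value per Myh6 count was highest in Rosa26 2. Doc2g, a C2-domain protein, was near even in the class, at 15.1, 14.5 and 14.8 CPM in Rosa26 1, Rosa26 2 and dNdK 2, against 4.05, 1.79 and 1.4 CPM, and at 1.66, 3.69 and 2.15 per 100 Myh6 counts. Fbxo40, a muscle F-box protein, was as even, at 10.5, 10 and 10.2 CPM against 0.405, 0 and 1.4. Angptl4, a secreted inhibitor of lipoprotein lipase made in fat, was highest where Myh6 was lowest, at 163, 201 and 116 CPM against 42.7, 27.6 and 55.7. Lgr6, a receptor of the R-spondin pathway, stood at 25.1, 35.5 and 16.2 CPM against 6.78, 3.83 and 5.48, and Tjp3, a tight junction protein, at 10.1, 11 and 8.04 CPM against 2.43, 2.3 and 3.03. For these 5 genes the split between the classes did not scale with Myh6 inside the class. Of the 81 genes, 19 differed by under 1.5-fold between the 3 libraries, beside 65.1% of all 8868 genes.

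Hamp went furthest from Myh6 in the other way. It encodes hepcidin, the hormone that limits iron export, and stood at 9.45, 36.1 and 86.6 CPM in Rosa26 1, Rosa26 2 and dNdK 2, against 0.405, 0 and 0. That was 1.04, 9.16 and 12.6 per 100 Myh6 counts, a 12.2-fold spread and the widest of the 81. Its near-identical copy Hamp2 had 1 count in the 6 libraries, and reads that fit both would not be in the gene rows. Hamp was at most 0.0731 CPM in muscle. Doc2g, Angptl4, Lgr6, Tjp3 and Hamp were chosen after their values were seen.

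**Figure D4:**
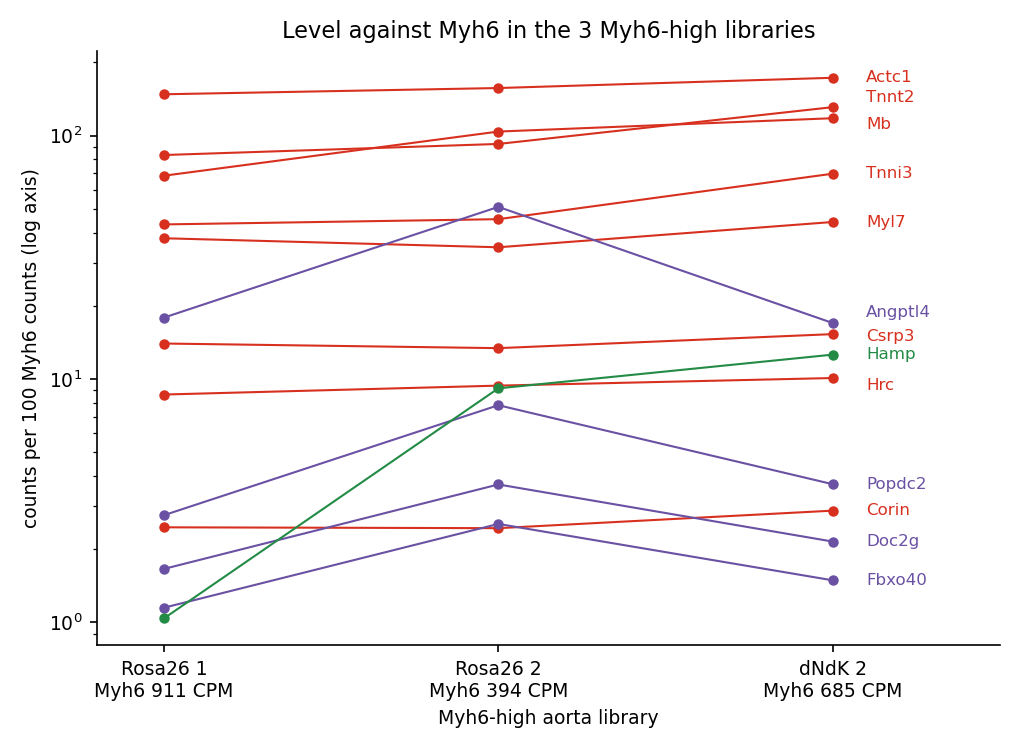
Counts per 100 Myh6 counts of 13 genes in the 3 Myh6-high aorta libraries, on a log axis; lines join the values of 1 gene and imply no order of the libraries. Of the red genes, Actc1 (148, 157 and 173) kept near level, while Mb (68.5, 104 and 118) did not. Purple genes such as Doc2g (1.66, 3.69 and 2.15) peaked in Rosa26 2, and Hamp (green) ran from 1.04 to 12.6.

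The 3 genes low with Myh6 were all on no list. G0s2, an inhibitor of fat breakdown, on chr1:193272160-193273188, stood at 251, 311 and 279 CPM in Rosa26 1, Rosa26 2 and dNdK 2, and at 924, 703 and 846 CPM in Rosa26 3, Rosa26 4 and dNdK 1. Depp1, a gene induced by FOXO factors, on chr6:116650684-116652847, stood at 46.9, 33.2 and 48.3 CPM against 284, 184 and 168. Ddit4, a stress-induced inhibitor of mTORC1, on chr10:59949675-59951770, stood at 24.8, 28 and 16 CPM against 58.3, 101 and 86. The rule that picked these genes set their classes apart. Their spread within the Myh6-high libraries was at most 1.75-fold.

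Genes of the circadian clock, in which activators such as Arntl, Clock and Npas2 drive repressors and output factors such as Dbp and Tef, also differed between the classes. This list was put together after their values were seen. Npas2 was the single one of 20 measured genes counted as high, at 6.57, 5.08 and 5.42 CPM in Rosa26 1, Rosa26 2 and dNdK 2, against 0.202, 0.255 and 0.466 in Rosa26 3, Rosa26 4 and dNdK 1. Arntl stood at 12.3, 13.5 and 9.91 CPM against 3.74, 2.04 and 5.95, and Clock at 69.5, 58.8 and 57.7 CPM against 44.5, 37.8 and 41.3. The output factors lay the other way round. Dbp stood at 7.7, 8.47 and 16.7 CPM against 72.6, 183 and 32.9, and Tef at 24.9, 18.5 and 18.3 CPM against 61.3, 49.5 and 47.3. Of the 18 clock genes at 5 CPM or more, the Myh6-high libraries all lay above the Myh6-low ones for 3 and all below for 7, beside 12.4% and 6.5% of all genes. None of the 20 was counted as low with Myh6. The labels give no time of day for the tissue collection.

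**Figure D5:**
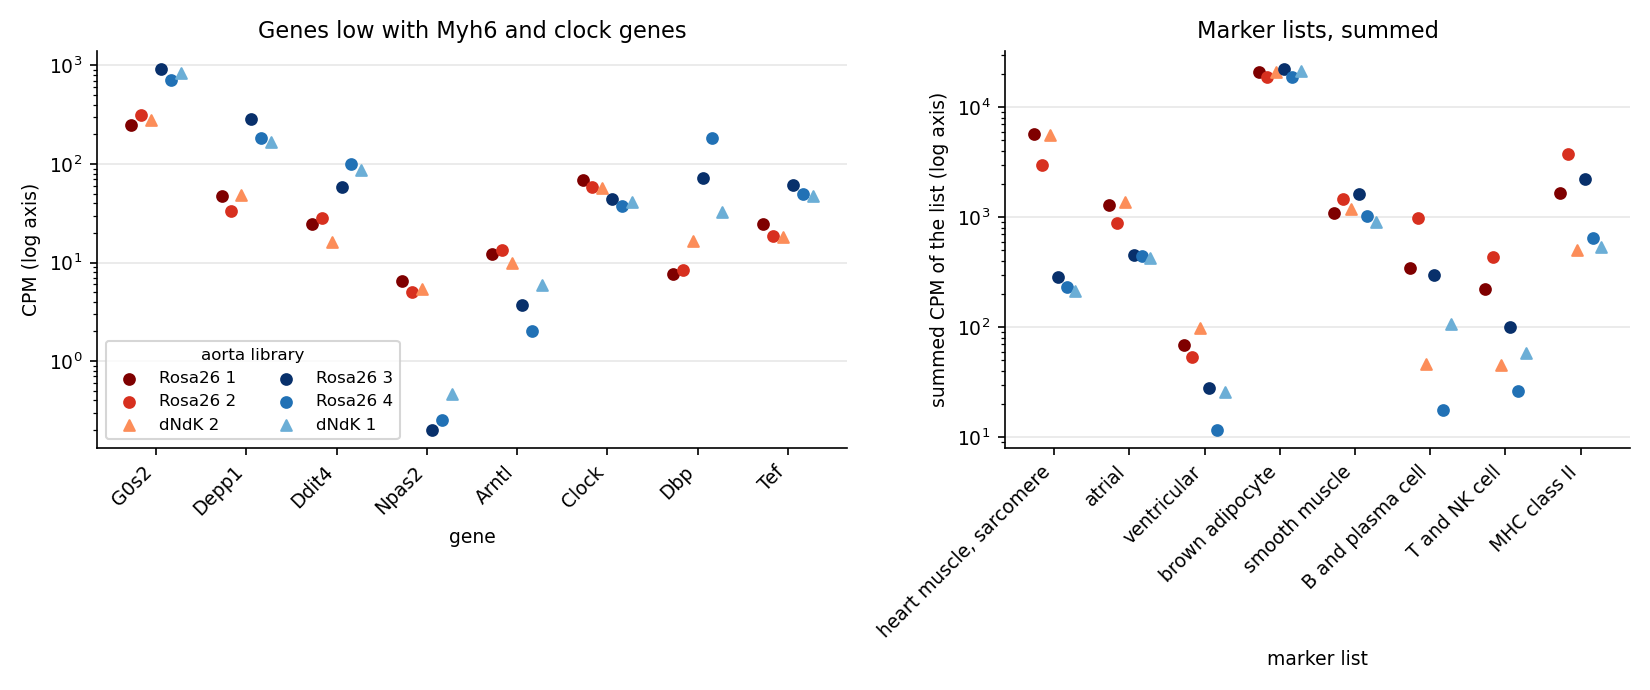
Left, CPM of the 3 genes low with Myh6 and of 5 clock genes in the 6 aorta libraries, on a log axis. Right, summed CPM of 8 marker lists on a log axis, with the colours and shapes of the left panel; the sarcomere list is apart (2973 to 5730 against 213 to 284 CPM), while the brown fat, smooth muscle and immune lists overlap between the classes.

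Immune genes varied widely inside each class. On the log2 (CPM + 1) scale the median difference of class medians over all measured members was 2.25 for B and plasma cell genes, 1.7 for thymocyte genes and 1.12 for T and NK cell genes, beside 0.07 over all genes at 5 CPM and 1.5 for the calcium and excitation list. It was 0.51 for macrophage and 0.5 for MHC class II genes. None of these genes met the rule for high or low with Myh6, nor did any of dendritic cells, mast cells, neutrophils or interferon response. Few lymphocyte genes could have met it, since 1 of 18 B and plasma cell genes, 3 of 27 T and NK cell genes, 2 of 13 thymocyte genes, 5 of 12 MHC class II genes, 3 of 13 dendritic, 4 of 12 mast cell and 1 of 16 neutrophil genes reached 5 CPM in every library of a class. Of 25 macrophage genes and 29 interferon response genes 16 each did, but only 0.925% of all 8868 genes were counted as high and 0.0338% as low. The B and plasma cell genes summed to 348, 981 and 46.6 CPM in Rosa26 1, Rosa26 2 and dNdK 2 and to 300, 17.6 and 107 CPM in Rosa26 3, Rosa26 4 and dNdK 1. Ms4a1, the B cell antigen CD20, stood at 37.6, 198 and 0.654 CPM against 9.62, 0.765 and 4.31, so it was high in 2 of the Myh6-high libraries and nearly absent from the third. The MHC class II genes summed to 1661, 3731 and 501 CPM against 2223, 653 and 541, and Cd74, the invariant chain, made up most of each sum. The T and NK cell genes summed to 221, 437 and 45.5 CPM against 99.9, 26.3 and 58.3, so these sums overlapped between the classes, with dNdK 2 low in its class. The B cell, T cell, MHC class II and macrophage sums were highest in Rosa26 2, the library with the lowest Myh6 of its class. Macrophage genes summed to 404 to 1310 CPM in the Myh6-high and 481 to 921 CPM in the Myh6-low libraries.

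Markers of the aorta and its surroundings were present in both classes. Acta2, smooth muscle actin, stood at 114, 170 and 170 CPM in Rosa26 1, Rosa26 2 and dNdK 2 and at 359, 180 and 83.5 CPM in Rosa26 3, Rosa26 4 and dNdK 1. Tagln, another defining gene of smooth muscle, had 1 count in the 6 libraries, although Myh11, the smooth muscle myosin, stood at 71.9 to 103 and 72.7 to 96.6 CPM. Brown fat genes summed to 18841 to 21006 CPM in the Myh6-high and 18793 to 22401 CPM in the Myh6-low libraries, and Ucp1, the brown fat uncoupling protein, stood at 5525 to 6632 and 6477 to 10148 CPM. Endothelial genes summed to 3714 to 4306 and 3632 to 6912 CPM, and fibroblast and matrix genes to 2600 to 3369 and 2329 to 4656 CPM. Of the smooth muscle, brown and white fat, endothelial, mesothelial, fibroblast, valve, Schwann cell and neuron lists none had a gene counted in either direction. Nor had the early response list, of which 16 of 24 genes reached 5 CPM, or the oxidative phosphorylation list, of which 32 of 36 did. The lists of valve, neuron, mitosis, lung, thyroid, oesophagus, liver, erythroid cells and thymic epithelium had at most 2 genes at that level. The rule thus says little of these lists. Over all 8868 genes 0.925% were counted as high and 0.0338% as low. At these shares the longer lists too would often hold no counted gene. Their lack of counted genes thus does not show that these tissues were equal between the classes. Liver genes summed to 375 to 519 CPM in the Myh6-high and 730 to 900 CPM in the Myh6-low libraries, and thyroid genes to 18.2 to 25.3 and 8.67 to 14.3 CPM. Neuron genes summed to 61.4 to 91.4 and 103 to 164 CPM, and Schwann cell genes to 321 to 353 and 354 to 426 CPM. None of these sums overlapped between the classes, while those of the other lists in this paragraph did. Of all 8868 single genes, 12.4% lay all above and 6.5% all below in the Myh6-high libraries. The same share was not counted for sums of lists. Thyroid had 1 gene at 5 CPM in every library of a class, and neuron and liver had 2 each. The oxidative phosphorylation list summed to 56514 to 59346 CPM in the Myh6-high and 56966 to 59367 CPM in the Myh6-low libraries.

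The labelled comparison, dNdK against Rosa26, crosses this split, since each genotype has libraries of both classes. It was fitted over all 6 aorta libraries with the edgeR quasi-likelihood test, first by genotype alone and then with the Myh6 class as a covariate. Of 11920 genes tested, 1 was called (0.00839%, adjusted p of 0.05 as the threshold) by genotype alone, and 713 had an unadjusted p under 0.05. With the class in the fit 2 were called (0.0168%), and 1210 had an unadjusted p under 0.05. DESeq2, which kept more genes, called 18 of 16515 and 106 of 16527, of which 18 and 104 were among the 11920. The common biological coefficient of variation was 0.387 by genotype alone and 0.296 with the class. Neither fit, nor DESeq2 in either form, called any of the 82 genes. Their median log2 fold change was 0.39 with a median standard error (SE) of 1.55 by genotype alone, and 0.37 with 0.50 given the class, beside −0.05 (0.36) and −0.03 (0.32) over all genes tested. The 82 genes were picked for splitting the classes, so their smaller SE given the class was built in.

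Myh6 had a log2 fold change of 0.24 (SE 2.35, edgeR adjusted p = 0.983) by genotype alone and −0.12 (SE 0.57, edgeR adjusted p = 0.956) given the class. Tnnt2 had 0.85 (SE 2.36, edgeR adjusted p = 0.938) and 0.67 (SE 0.42, edgeR adjusted p = 0.58). The SE of both was several-fold smaller once the class was in the fit, and neither was called. Since Myh6 itself set the class and Tnnt2 split the same way, that fall in SE was fixed by the choice of the classes. Ube2ql1, a ubiquitin-conjugating enzyme gene, was called both ways, at 70.1 and 75.7 CPM in dNdK 2 and dNdK 1 and 7.65 to 12.1 CPM in the 4 Rosa26 libraries, a log2 fold change of 2.99 (SE 0.22, edgeR adjusted p = 0.00779) by genotype alone. Its Rosa26 and dNdK libraries did not overlap in either Myh6 class. Mkrn1, a ubiquitin ligase gene, was called only with the class in the fit (log2 fold change 5.23, SE 0.61, edgeR adjusted p = 0.0437), and stood at 18.1 CPM in dNdK 2, 1.4 in dNdK 1 and 0 to 0.719 in the Rosa26 libraries. It thus rested on 1 library for most of its counts. By genotype alone no gene was called without Rosa26 1, Rosa26 2 or dNdK 1. Given the class, no gene was called without Rosa26 1 or Rosa26 2, and 1, 9, 11 and 160 were called without Rosa26 3, Rosa26 4, dNdK 1 and dNdK 2. Of the Myh6-low libraries alone 30 genes were called and of the Myh6-high libraries alone 554, each from 2 Rosa26 libraries and 1 dNdK library, with the lone library assumed to vary like the other 2.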

How the data were processed

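The 6 aorta and 7 skeletal muscle libraries were made, per the labels' protocols, by amplifying reverse-transcribed total RNA with a mouse transcriptome primer pool and reading the amplicons on an Ion Torrent instrument. The deposited tables hold raw read counts per gene. Per the submitters' processing notes, STAR 2.5.2b, edgeR 3.28.1, limma 3.42.2 and the build mm10 (GRCm38.p6) were used. Each table has 3 count columns, and the one for either strand was used, so overlapping and antisense genes cannot be told apart. Lines that name no gene stayed out of library sizes. Reads on genes made up 86.66% to 91.42% of each aorta table. The libraries carry no molecular identifiers, so floors cover counting error only.

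CPM is the count over the sum of all 19838 gene rows. Class values are plain CPM. Genotype was tested on counts in R 4.3.3 with edgeR 4.0.16 (filterByExpr, min.count 10, min.total.count 15; TMM scaling; quasi-likelihood test), with Benjamini-Hochberg adjustment over all genes tested. SE was derived from the fold change and the test's F statistic. DESeq2 1.42.0 was an alternative, and other folds, CPM minimums, scalings, strands and left-out libraries were tried. The fit by genotype alone and the rule for high genes were run on simulated counts with less spread between libraries than these data. Those runs thus do not show how either does at the spread found here.

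The libraries, the 37 gene lists and the rule below were chosen with earlier results of these data known. The rule named Myh6 and Tnnt2, up to 6 high members of each list or else its 2 most abundant, the 10 high and low genes on no list with the largest ratio and at least 10 CPM, predicted genes left out, and the genes called for genotype. Nkx2-5, Myl2, Myl3, Irx4, Myh7, Acta1, Myh4, Tagln and Myh11 were named as defining markers of their cell types, from a marker list written with the gene lists. Names outside both were chosen after their values were seen, as marked in the text or listed here: Clock, Rims2, Pde4dip, Sh3bgr and Akap6 at the edge of the 2-fold limit, Bmp10, Gja5, Tnnc2, Trdn, Tpm3 and Hamp2. A gene counted among those high with Myh6 is not reported here by name.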

Additional observations from a re-analysis of the deposited data

Results flagged for a closer look

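Of 130 named genes examined over the 4 Rosa26 aorta libraries, 3 had 1 library far from the others, with a gap of 0.838 to 0.96 of the whole range to the nearest other; chance alone flags about 1 in 20 such groups. All 3 were highest in Rosa26 3, a Myh6-low library. Jchain, the joining chain of antibodies made by plasma cells, stood at 181 CPM there and at 11.2 to 18.1 CPM in the other 3. Msln, a surface protein of mesothelium, stood at 150 CPM against 27.6 to 38.2. Upk3b, another mesothelial gene, stood at 236 CPM against 48.2 to 78.6. No heart muscle gene was among them. The check looks for 1 library apart, however, and 2 of the 4 Rosa26 libraries were Myh6-high. A gene that follows Myh6 could thus hardly be flagged.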

How the results depend on the processing

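Against 82 high and 3 low genes, a fold of at least 4 gave 53 and 0, and a fold of 1.5 gave 29 low genes. A lowest CPM of 1 gave 155 and 7, and one of 20 gave 35 high genes. TMM scaling gave 5 low genes and counts of the first strand 10. Leaving out 1 library gave 83 to 346 high and 3 to 73 low genes, which by the rule's construction can only add genes. Added after seeing the data, leaving out both Rosa26 3 and 4 gave 148 and 43, the Rosa26 libraries alone 595 and 101, and the dNdK libraries alone 293 and 204. Of 168 values of 56 named genes under TMM scaling or with 1 strand, 155 stayed at least 2-fold apart, 13 were under 2-fold and 0 turned. TMM scaling moved the median over all genes from 0.07 to −0.01 (log2).

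The genotype calls, 1 by genotype alone and 2 given the class, were 18 (of 16515 genes) and 106 (of 16527) with DESeq2 and 423 given the class without the filter on low counts. Each strand alone gave 0 calls in both fits, with 467 and 512 genes at an unadjusted p under 0.05 by genotype alone and 1215 and 1124 given the class. Leaving out 1 library gave 0 to 1 and 0 to 160. Without the Myh6-high libraries 30 genes were called, and in those alone 554. With the replicate block 163 genes were called, and Myh6 and Tnnt2 turned to −3.74 and −3.39. Block and class together could not be fitted, since no residual degrees of freedom were left. The deviations from the genotype mean correlated at −0.35 between libraries 1 and at 0.19 between libraries 2. With 2 dNdK libraries their deviations are equal and opposite, so the 2 values are not independent. They cannot show whether same-numbered libraries were paired, and the labels give only the number. Myh6 turned to −0.12 given the class and to −1.56 without the Myh6-high libraries. Leaving out 1 library moved Myh6 from −9.64 to 1.56 and Tnnt2 from −9.98 to 2.07. The cause was not tested.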
